A study of Mus musculus with 7 samples.

Results

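Reactive astrocyte genes are transcripts that astrocytes make in larger amounts after injury, infection or abnormal activity of the brain. The list examined here held 37 of them, drawn up by gene name with earlier results of these data known, and all 37 were found by symbol among the 47729 genes of the count table. By the usual naming of the astrocyte literature, 12 were pan-reactive genes, 9 were A1 genes (first described after systemic endotoxin), 11 were A2 genes (first described after stroke) and 5 had no class. Arranged by what their products do, they fell into intermediate filaments (3 genes), ligands, receptors and signalling proteins (8), protease inhibitors, complement and other secreted proteins (7), antigen presentation and interferon-inducible proteins (4), adhesion, matrix and surface proteins (8), and enzymes, transporters and a chaperone (7).

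Astrocytes are the glial cells that clear glutamate and potassium from the extracellular space, cover blood vessels with their end-feet and contact synapses. In the reactive state they enlarge, fill with intermediate filaments such as GFAP and vimentin, and secrete protease inhibitors, complement components and lipocalin. Much of this program runs through cytokines of the interleukin 6 family, which bind receptors that contain gp130 and lead to phosphorylation of STAT3, a transcription factor that induces its own inhibitor SOCS3.

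The RNA came from forebrains of mice at postnatal day 15. Control mice were Lhx6+/- and mutant mice Lhx6-/- (allele Lhx6tm2Vpa, a null allele present in every cell), all of the strain F1(C57BL/6 X 129Sv), so that the controls too carried 1 null copy of Lhx6 and no wild-type group entered the comparison. Lhx6 encodes a LIM-homeodomain transcription factor of interneurons born in the medial ganglionic eminence, and the genotypes were compared to look for features of the mutant forebrain that could bear on whether interneurons grafted into it survive. There were 4 control and 3 mutant samples, each pooled from 2 animals, so the spread between libraries was a spread between pools of whole tissue rather than between astrocytes.

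Libraries held between 32556304 and 38069151 expected counts. Normalized counts are expected counts divided by the relative effective size of the library, and are listed throughout in the order of control libraries 2, 3, 10 and 11 and mutant libraries 5, 12 and 13, the numbers being those in the column names. Lhx6 itself stood at 615, 522, 476 and 522 in the controls and at 70.9, 76.6 and 70.1 in the mutants, so each library bore the genotype of its label. On the principal component that held the most variance (39.6%), libraries 2, 3 and 5 lay apart from libraries 10 to 13, a division that crossed both genotypes. Its technical or biological nature is not stated in the labels, and where the runs of library numbers gave a member opposite signs, both values are stated.

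Reactive astrocyte genes were higher in the mutant forebrain as far as they changed at all. Of the 36 members that passed the count filter, 14 were called higher in mutants, none (0) was called lower and 22 were not called (edgeR quasi-likelihood test, adjusted p of 0.05 or less). Among all 19684 genes tested, 2.97% were called higher and 1.87% lower. The 14 called members were Gfap, Vim, Osmr, Stat3, A2m, Serpina3n, Timp1, C4b, H2-D1, Cd44, Cd109, Emp1, Aspg and Tgm1, and in 9 of them the mutant mean was at least 2 times the control mean. At an unadjusted p of 0.05 or less, 18 members were higher and 0 lower, against 9.92% and 8.32% of all genes. In 4 of the 36 members (Cxcl10, Lcn2, Steap4 and Tgm1) fewer than 3 control libraries reached the 10 counts of the filter, so these entered the test through mutant libraries; of the other 32 members 13 were called. The median log2 fold change over the 36 members was 0.63, against -0.013 over all genes tested. All 3 mutant libraries lay above all 4 control libraries in 19 of the 36 members, and in 10.7% of all genes; the reverse held for 1 member, Amigo2, and for 9.0% of all genes. Because the RNA was of whole forebrain, more astrocytes in the tissue and more of these RNAs per astrocyte cannot be told apart. DESeq2 called 15 members higher and 0 lower, where it called 5.09% of all genes higher and 3.7% lower, and edgeR with the run (libraries 2, 3 and 5 or 10 to 13) as a covariate called 16 higher and 0 lower, against 6.16% and 5.04% of all genes. In libraries 10 to 13 alone 15 were called higher and 0 lower, against 5.36% and 4.08% of all genes. With 1 library left out at a time, between 8 and 13 members were called higher, the lowest number, 8, without mutant library 5 and without mutant library 13.

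**Figure D1:**
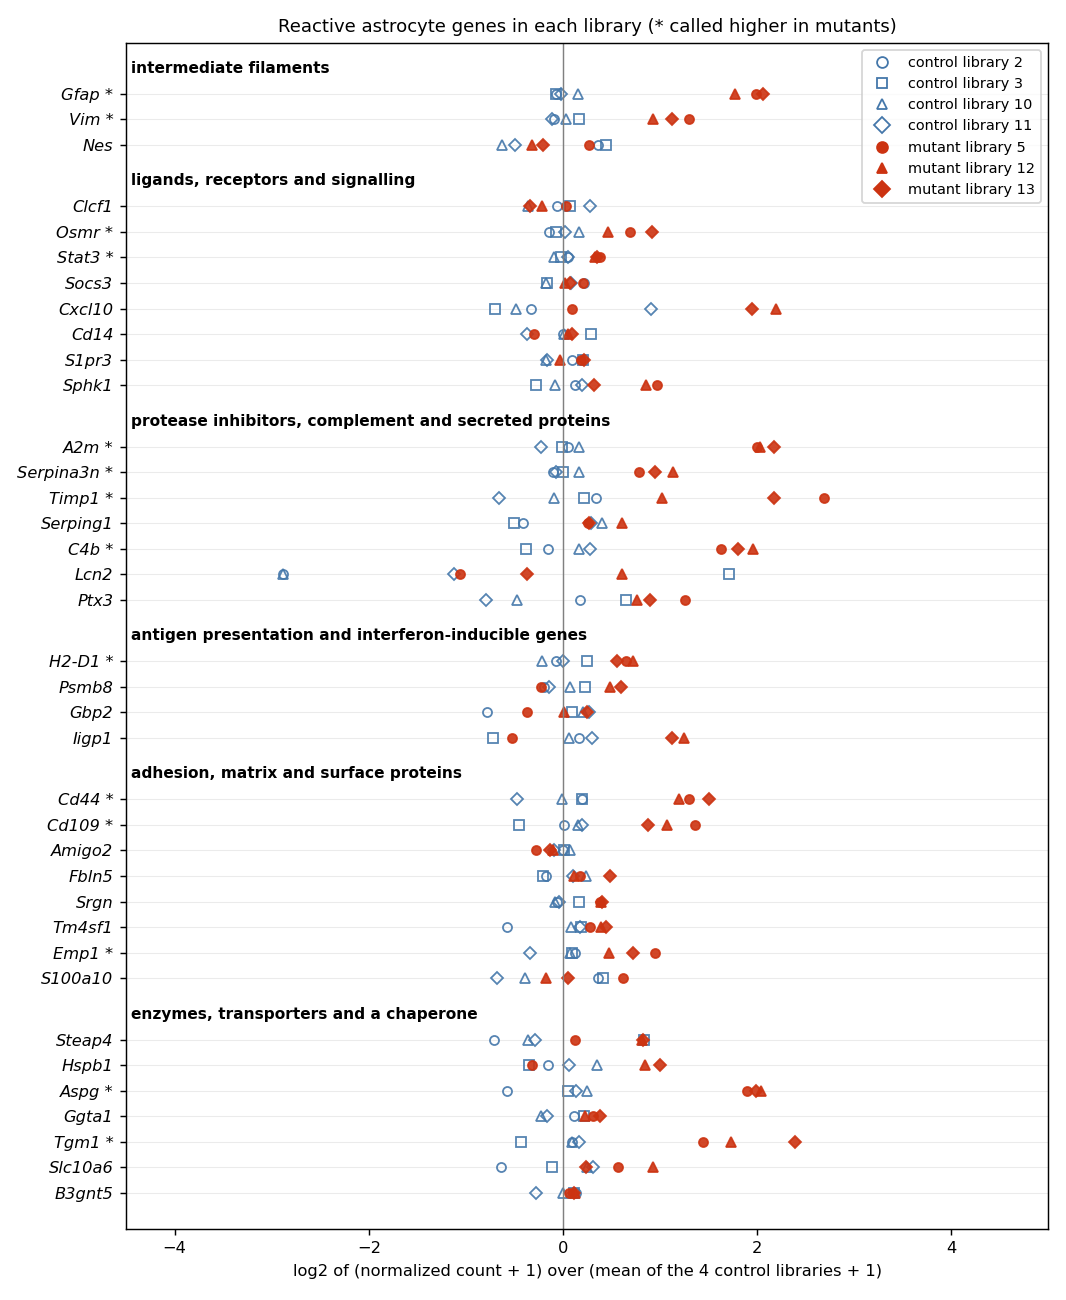
Each row is 1 of the 37 members, grouped by role, and each point is 1 library, placed by the log2 ratio of its normalized count (plus 1) to the mean of the 4 control libraries (plus 1); open blue symbols are controls, filled red symbols mutants and asterisks mark the 14 called members. The filled symbols of Gfap, A2m, Aspg, C4b and Cd44 sit to the right of every open symbol, whereas those of Nes, Socs3 and Gbp2 mix with the controls.

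Because STAT3, interferon-activated factors and AP-1 are the regulators best known for inducing these genes, the 250 bases before each RefSeq transcription start (GRCm38.p6) were searched on both strands for the letters of their core elements, namely TTCNNNGAA for STAT, GAAA, 2 bases of any kind and again GAAA for the interferon-stimulated element and TGANTCA for AP-1. A start site was listed for 29 of the 37 members, and not for Clcf1, Cd14, A2m, Serping1, C4b, Iigp1, Cd109 and S100a10. The STAT element occurred before 6 of the 29 members (Socs3, Sphk1, Psmb8, Emp1, Steap4 and Tgm1) and before 8.13% of all genes with a window. The interferon core occurred before 5 (Cxcl10, Gbp2, Srgn, Tm4sf1 and Tgm1) and before 3.46% of all genes, and the AP-1 element before 4 (Cxcl10, Sphk1, Gbp2 and Emp1) and before 7.82%. Among the 11 called members with a window, the STAT element was found in 2 (Emp1 and Tgm1), the interferon core in 1 (Tgm1) and the AP-1 element in 1 (Emp1); before Emp1 an AP-1 match that began at -25 shared bases with a STAT match that began at -22. These are matches of letters and not known sites, and a window without a match says only that these letters are not in it. The windows with a match overlapped annotated exons for Socs3, Sphk1, Gbp2, Srgn, Emp1 and Steap4, and for Psmb8 over all 250 bases. Those of Cxcl10, Tm4sf1 and Tgm1 lay outside every exon. The windows of 3 members are shown because they stand for the 3 situations met here: Gfap, the member with the highest level per length, with no match; Tgm1, a called member with STAT letters (first bases -173 and -64) and an interferon core (-242); and Cxcl10, whose level followed single libraries, with an interferon core (-213) and an AP-1 element (-74). All lie on the minus strand and outside every exon, at chr11:102897201-102897450, chr14:55713493-55713742 and chr5:92348890-92349139, and capitals mark the matches.
Gfap: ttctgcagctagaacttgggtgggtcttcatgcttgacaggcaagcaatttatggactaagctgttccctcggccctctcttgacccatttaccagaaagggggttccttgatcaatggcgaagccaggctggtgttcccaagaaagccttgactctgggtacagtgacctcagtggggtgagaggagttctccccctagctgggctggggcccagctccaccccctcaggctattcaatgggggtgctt
Tgm1: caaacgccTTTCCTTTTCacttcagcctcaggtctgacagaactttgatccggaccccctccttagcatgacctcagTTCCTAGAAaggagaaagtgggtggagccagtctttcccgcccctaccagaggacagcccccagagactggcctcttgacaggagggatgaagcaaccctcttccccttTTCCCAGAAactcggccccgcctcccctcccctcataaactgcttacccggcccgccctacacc
Cxcl10: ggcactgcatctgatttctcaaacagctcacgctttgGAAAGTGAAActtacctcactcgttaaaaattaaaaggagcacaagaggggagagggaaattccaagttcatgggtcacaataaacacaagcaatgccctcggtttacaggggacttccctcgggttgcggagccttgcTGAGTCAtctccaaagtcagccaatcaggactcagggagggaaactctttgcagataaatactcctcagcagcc

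The intermediate filament genes Gfap and Vim rose in the mutants, and Nes did not pass the test. Gfap (chr11:102887336-102900912, minus strand) encodes glial fibrillary acidic protein, the main filament protein of astrocytes and the standard histological mark of the reactive state. Its normalized counts were 6208, 6238, 7255 and 6445 in the control libraries and 26006, 22333 and 27248 in the mutant libraries. The lowest mutant library exceeded the highest control library about 3 times over, and Gfap rose by 1.95 on the log2 scale (SE 0.10, edgeR adjusted p = 7.41e-05), which made it the 5th gene in order of p-value of all tested. Vim (chr2:13573927-13582826, plus strand), which encodes vimentin, the filament protein of immature and reactive astrocytes and also of endothelial and meningeal cells, read 1411, 1689, 1534 and 1390.4 in the control libraries and 3712, 2864 and 3276 in the mutant libraries. Again every mutant library lay above every control library (log2 fold change 1.12, SE 0.11, edgeR adjusted p = 0.0011). Nes encodes nestin, a filament protein of neural progenitors that reappears in reactive astrocytes and is also made by endothelium. The counts of Nes were 919, 967, 461 and 506 in the control libraries and 862, 571 and 619 in the mutant libraries. They were high in libraries 2, 3 and 5 and low in libraries 10 to 13, in both genotypes, and the genotype difference was -0.059 (SE 0.29, edgeR adjusted p = 0.949), or -0.13 in libraries 2, 3 and 5 and 0.31 in libraries 10 to 13.

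In cytokine signalling the receptor Osmr and the transcription factor Stat3 rose, while the ligand Clcf1 and the inhibitor Socs3 did not pass the test. Osmr (chr15:6813577-6874969, minus strand) encodes the oncostatin M receptor subunit that pairs with gp130. Its counts were 178, 187, 221 and 199 in the control libraries and 318, 270.1 and 371 in the mutant libraries, without overlap of the genotypes (log2 fold change 0.71, SE 0.14, edgeR adjusted p = 0.0277). Stat3 (chr11:100885098-100939540, minus strand) was at 2022, 1935, 1834 and 2035 in the control libraries and 2541, 2465 and 2499.7 in the mutant libraries. The difference was small and the mutant libraries were nearly equal, all of them above the controls (log2 fold change 0.35, SE 0.069, edgeR adjusted p = 0.0238). Both calls were at the edge of the threshold. For Osmr the adjusted p was 0.0650 without control library 2, 0.0667 without control library 11, 0.0785 without mutant library 5 and 0.142 without mutant library 13. In libraries 10 to 13 alone Osmr was not called either, with a log2 fold change of 0.62 and an adjusted p of 0.0554. For Stat3 the adjusted p was 0.0776 and 0.0507 without control libraries 10 and 11, and 0.0839, 0.0893 and 0.116 without mutant libraries 5, 12 and 13. Clcf1, a cytokine of the interleukin 6 family, read 43.9, 48.2, 35.5 and 55.9 in the control libraries and 46.9, 39.3 and 36 in the mutant libraries, and Socs3 read 133, 101, 101 and 121 in the control libraries and 131, 116 and 120.3 in the mutant libraries. The genotypes overlapped for both, with log2 fold changes of -0.17 (SE 0.23) and 0.10 (SE 0.16). For Clcf1 the difference was 0.026 in libraries 2, 3 and 5 and -0.27 in libraries 10 to 13.

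The other signalling members did not pass the test. Sphk1, which encodes the kinase that makes sphingosine 1-phosphate, came nearest, with counts of 115, 87.4, 99.8 and 121 in the control libraries and 208, 193 and 133 in the mutant libraries. The mutant libraries lay above the controls, but the adjusted p was 0.0699 by edgeR (log2 fold change 0.75, SE 0.20), 0.0144 by DESeq2 and 0.0391 by edgeR with the run as a covariate. S1pr3, a receptor for the product of that kinase, differed by 0.13 (SE 0.13), and Cd14, a co-receptor for endotoxin that microglia also make, by -0.042 (SE 0.20), or -0.45 in libraries 2, 3 and 5 and 0.25 in libraries 10 to 13. The chemokine gene Cxcl10 was low and uneven, at 5.48, 4.02, 4.80 and 14.2 in the control libraries and 7.66, 36.2 and 30.3 in the mutant libraries. Mutant libraries 12 and 13 were the highest of the 7, mutant library 5 lay among the controls and control library 11 above the other controls (log2 fold change 1.77, SE 0.62, edgeR adjusted p = 0.166). Exons of Art3 on the opposite strand cover 5.91% of Cxcl10, and those of a second gene 4.02% of Sphk1, and reads there cannot be told apart without the strand.

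Few genes of the broader gp130 and STAT3 pathway passed the test. Of 22 further genes of the pathway (ligands, receptor chains, Janus kinases, inhibitors), 20 were tested, 0 were called higher by edgeR (2 at an unadjusted p of 0.05 or less, and 1, Pias3, by DESeq2) and 1 was called lower (0 with any 1 library left out), with a median log2 fold change of 0.043. Pias3, which encodes an inhibitor of STAT3, was called higher by DESeq2, with the run covariate (adjusted p = 0.0185) and in libraries 10 to 13 alone (0.0390). The members of the pathway with the highest levels per length, Cntfr, Ptpn11 and Jak1, differed by -0.00022, 0.018 and -0.0078 on the log2 scale. Over the 20 genes tested the log2 fold changes ran from -0.53 to 0.82, and that of Pias3 was 0.41 (SE 0.12). Bcl3, an adaptor of NF-kappaB that STAT3 also induces, was among the pathway genes that did not pass the test.

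Among the secreted proteins, 4 of 7 members rose, and 3 of these are inhibitors of proteases. A2m (chr6:121635376-121679227, plus strand), encoding the broad protease trap alpha-2-macroglobulin, had counts of 151, 146, 164 and 125 in the control libraries and 588, 602 and 664 in the mutant libraries. The mutant libraries lay close together and far above the controls (log2 fold change 2.08, SE 0.12, edgeR adjusted p = 0.000172). Serpina3n (chr12:104406729-104414329, plus strand), a serine protease inhibitor and among the most widely used transcripts to mark reactive astrocytes, read 1342, 1437, 1616 and 1369 in the control libraries and 2479, 3154 and 2789 in the mutant libraries, with no overlap (log2 fold change 0.96, SE 0.10, edgeR adjusted p = 0.00187), and 16.9% of its 36-base words occur in neighbouring serpin genes such as Serpina3f. Timp1 (chrX:20870166-20874735, plus strand), the inhibitor of matrix metalloproteinases, stood at 27.4, 25.1, 20.1 and 13.2 in the control libraries and 144, 44.5 and 100.4 in the mutant libraries. The mutant libraries spread more than 3 times from lowest to highest, yet all lay above the controls (log2 fold change 2.16, SE 0.40, edgeR adjusted p = 0.02). The call of Timp1 was lost without control library 10 (adjusted p = 0.0609), control library 11 (0.0507), mutant library 5 (0.0682) or mutant library 13 (0.0844).

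C4b (chr17:34728380-34743882, minus strand) encodes complement component 4, which acts early in the classical pathway and tags material for removal. Its counts were 382, 327, 478 and 516 in the control libraries and 1321, 1660.2 and 1489 in the mutant libraries, so that the lowest mutant library was more than 2 times the highest control library (log2 fold change 1.81, SE 0.16, edgeR adjusted p = 0.000734). Of the 36-base words in its transcripts, 44.3% also occur in other genes, chiefly C4a, so reads of the pair could have been shared between them. Serping1, which encodes the inhibitor of complement C1, read 119.5, 111, 211 and 194 in the control libraries and 191, 243 and 191 in the mutant libraries. Here the genotypes overlapped, and control libraries 10 and 11 were as high as mutant libraries 5 and 13 (log2 fold change 0.39, SE 0.25, edgeR adjusted p = 0.479).

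Lcn2 and Ptx3 are secreted proteins of innate immunity, an iron-siderophore binding lipocalin and a long pentraxin. The counts of Lcn2 were 7.68, 208, 7.68 and 28.5 in the control libraries and 29.7, 96.3 and 48.3 in the mutant libraries. A control library, library 3, held the highest value, and without it the other controls all lay below the mutant libraries. The log2 fold change was accordingly -0.12 (SE 1.05, edgeR adjusted p = 0.973) with all libraries and 1.98 (adjusted p = 0.134) without control library 3. Neutrophils are another source of Lcn2, and the neutrophil genes S100a8, S100a9, Ngp, Camp and Ltf in control library 3 stood at 6.03, 6.03, 5.02, 0 and 5.02 normalized counts, with at most 6.21 in any other library. These neutrophil genes were too low for the filter, and the source of Lcn2 in control library 3 was not tested. The difference of Lcn2 was -1.87 in libraries 2, 3 and 5 and 2.01 in libraries 10 to 13, where the adjusted p was 0.0591. Ptx3 was at 30.7, 43.2, 19.2 and 15.2 in the control libraries and 66.1, 46.6 and 51.1 in the mutant libraries. The mutant libraries lay above the controls, narrowly so for control library 3 (log2 fold change 1.01, SE 0.36, edgeR adjusted p = 0.174), and Ptx3 passed the threshold with the run covariate (adjusted p = 0.0190) and in libraries 10 to 13 alone (0.0188).

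**Figure D2:**
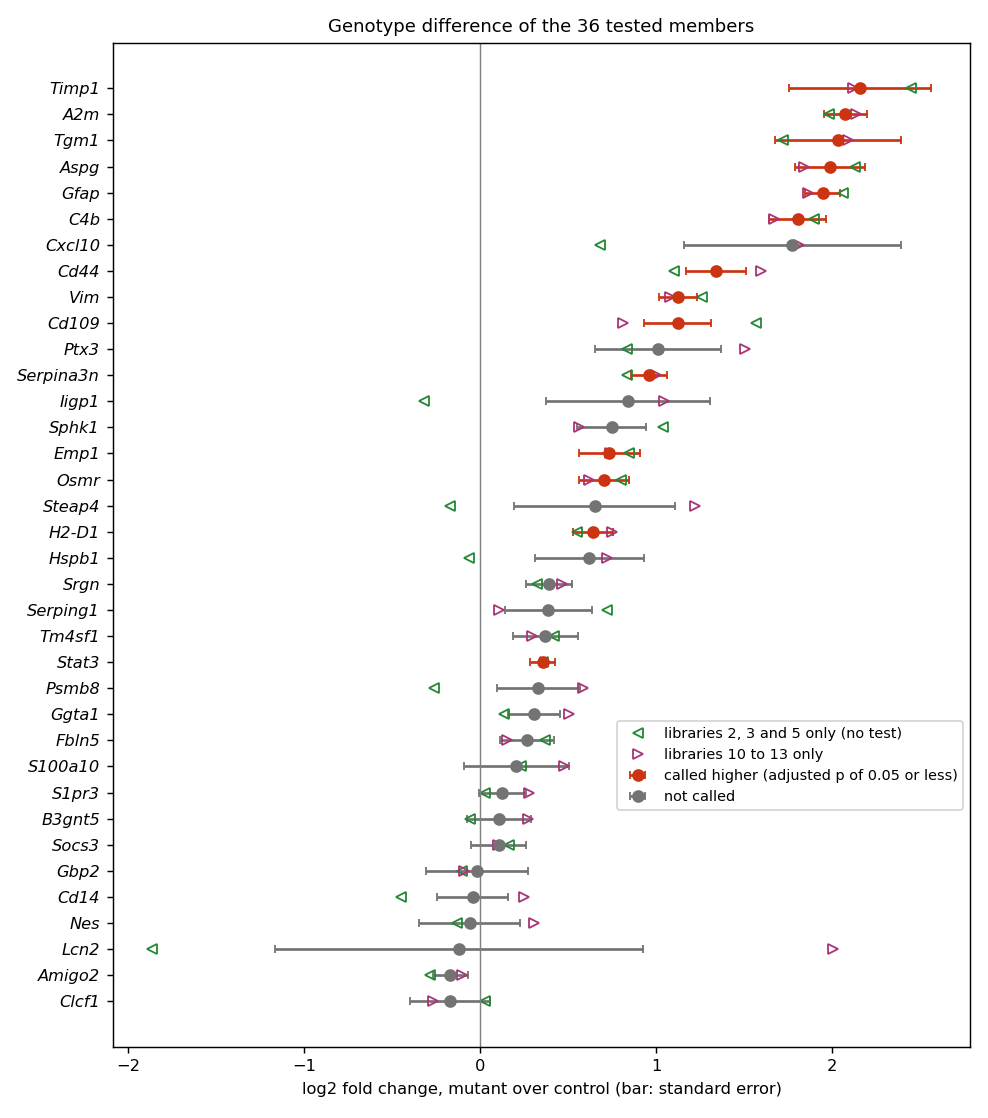
Log2 fold changes, mutant over control, of the 36 members tested are drawn as circles with bars of 1 standard error, red where called, and triangles give the same difference in libraries 2, 3 and 5 (no test) and in libraries 10 to 13. The 14 called members were positive in both runs, whereas 9 of the 36 members had opposite signs in the 2 runs, the widest gap being that of Lcn2, from -1.87 to 2.01.

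Of the antigen presentation and interferon-inducible members, H2-D1 rose and 3 did not pass the test. H2-D1 (chr17:35262730-35267499, plus strand) encodes a classical class I histocompatibility chain. Its counts were 896, 1113, 808 and 941 in the control libraries and 1469, 1547 and 1382 in the mutant libraries, with the mutant libraries above all controls (log2 fold change 0.64, SE 0.11, edgeR adjusted p = 0.0151). The call needed all 3 mutant libraries, the adjusted p being 0.0577, 0.0736 and 0.0599 without libraries 5, 12 and 13, and 21.8% of its 36-base words occur in H2-K1 and other class I genes. Psmb8, a subunit of the immunoproteasome, read 53.7, 72.3, 65.2 and 55.9 in the control libraries and 52.7, 86.9 and 93.7 in the mutant libraries. Iigp1, an interferon-inducible GTPase that guards against intracellular parasites, read 17.5, 9.04, 16.3 and 19.3 in the control libraries and 10.5, 38.3 and 35.0 in the mutant libraries. In both genes libraries 12 and 13 were the highest of the 7, while mutant library 5 lay below the controls in Psmb8 and among them in Iigp1. Gbp2, a guanylate-binding protein, stood at 32.9, 61.3, 66.2 and 69.1 in the control libraries and 44.1, 58.0 and 68.2 in the mutant libraries, with the genotypes mixed. Psmb8 shares 13% of its words with other genes, and part of its exons overlaps another gene. The log2 fold changes were 0.33 (SE 0.24), 0.84 (SE 0.46) and -0.018 (SE 0.29) for the 3 genes in that order. Libraries 2, 3 and 5 gave -0.26 for Psmb8 and -0.32 for Iigp1, and libraries 10 to 13 gave 0.58 and 1.05.

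The unevenness of Cxcl10, Psmb8 and Iigp1 was shared by interferon response genes outside the list. Of 12 such genes tested, mutant library 12 exceeded all controls in 12, mutant library 13 in 11 and mutant library 5 in 1, while mutant library 5 lay below all controls in 7. Over all genes tested the corresponding shares above the controls were 22.9%, 22.4% and 24.5%, and mutant library 5 lay below them in 22.7%. Bst2, an antiviral membrane protein, was an example, at 39.5, 43.2, 35.5 and 63.0 in the control libraries and 53.6, 115 and 93.7 in the mutant libraries. Ifit3, another antiviral protein, was at 94.3, 105, 106 and 84.4 in the control libraries and 56.5, 307 and 212 in the mutant libraries, so that the controls lay between mutant library 5 and the other mutants. The summed level of the 12 genes, in RPKM (reads scaled to exon length and library size), was 11.1 to 12.7 in the controls and 9.88, 26.4 and 19.1 in mutant libraries 5, 12 and 13. Only Gbp3 was called (log2 fold change 0.73, SE 0.16, edgeR adjusted p = 0.0433), in which library 5 was also above the controls, and its call was lost with any 1 library left out (adjusted p from 0.0504 to 0.181). DESeq2 called 3 in all libraries, Gbp3, Irf7 (adjusted p = 0.0498) and Oasl2 (0.0495). Without mutant library 5 edgeR called 4 genes, Irf7, Ifit3, Oasl2 and Usp18, and not Gbp3. In libraries 10 to 13 alone it called 5 genes, the same 4 and Gbp3. The labels give no reason for the difference between mutant libraries, and its cause was not tested.

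**Figure D3:**
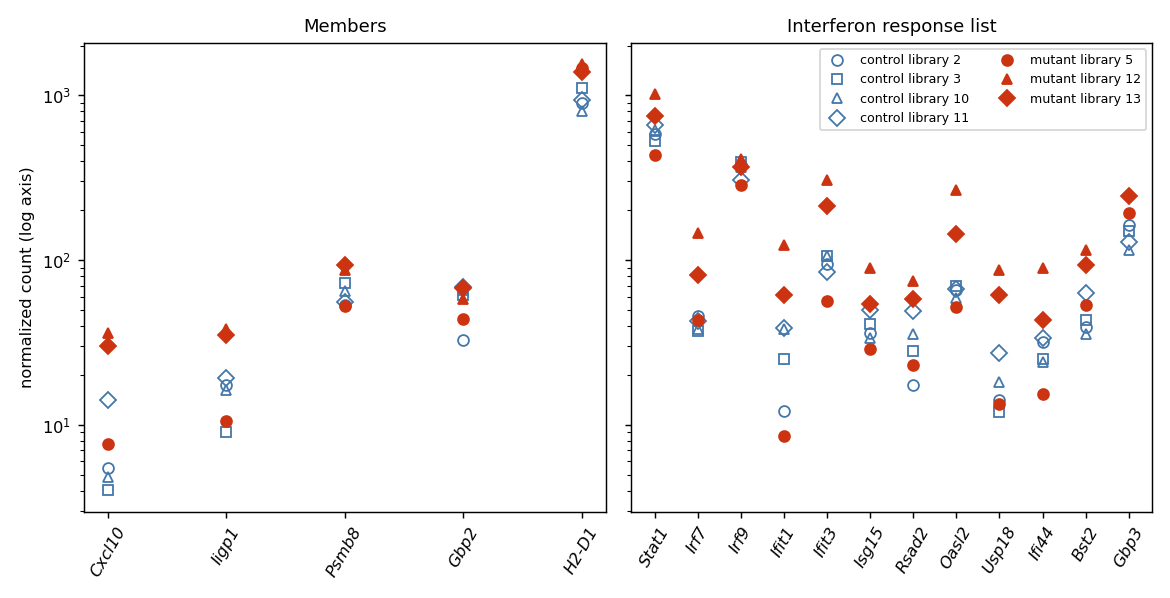
Normalized counts on a log axis of 5 members (left) and of the 12 interferon response genes (right) in each library, open blue symbols for controls and filled red symbols for mutants. The filled circles of mutant library 5 lie below all open symbols in 7 of the 12 genes, for example at 56.5 in Ifit3 against 307 and 212 in mutant libraries 12 and 13, but above them in H2-D1.

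Of the adhesion, matrix and surface proteins, Cd44, Cd109 and Emp1 rose. Cd44 (chr2:102811141-102901665, minus strand), the receptor for hyaluronan, had counts of 266, 265, 230.3 and 167 in the control libraries and 571, 534 and 659 in the mutant libraries, the lowest mutant library being 2 times the highest control library (log2 fold change 1.34, SE 0.17, edgeR adjusted p = 0.00449). Cd109 (chr9:78615546-78716253, plus strand), a membrane-anchored protein of the alpha-2-macroglobulin family that binds TGF-beta, read 132, 95.4, 146 and 149 in the control libraries and 337, 276 and 239.6 in the mutant libraries (log2 fold change 1.12, SE 0.19, edgeR adjusted p = 0.0128). The genotypes did not overlap, and the log2 fold change was 1.57 in libraries 2, 3 and 5 and 0.81 in libraries 10 to 13. Without mutant library 12 the adjusted p of Cd109 was 0.0523. Emp1 (chr6:135362545-135383173, plus strand), a tetraspan membrane protein, was at 131, 129, 127 and 94.5 in the control libraries and 233, 168 and 199 in the mutant libraries. Its mutant libraries too were the highest, but the call was the weakest of the 14 (log2 fold change 0.73, SE 0.17, edgeR adjusted p = 0.048) and was lost without any 1 of the 7 libraries, with adjusted p from 0.0595 without control library 3 to 0.167 without mutant library 13, and with no filter on low counts (0.0702).

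The remaining surface members did not pass the test. Srgn, the core protein of a granule proteoglycan made by many blood-derived cells, showed 114, 134, 112 and 116 in the control libraries and 155, 156 and 157 in the mutant libraries. Every mutant library was above the controls and the mutants were nearly equal (log2 fold change 0.39, SE 0.13, edgeR adjusted p = 0.146). Tm4sf1, a tetraspan protein of endothelium, read 214, 366, 339.6 and 362 in the control libraries and 388, 420.2 and 435 in the mutant libraries, also with the mutants highest but with a low value in control library 2 (log2 fold change 0.37, SE 0.18, edgeR adjusted p = 0.341). Fbln5, an elastic fibre protein, differed by 0.27 (SE 0.15). S100a10, the partner of annexin A2, read 492, 509, 293 and 239 in the control libraries and 588, 339 and 397 in the mutant libraries. As with Nes, libraries 2, 3 and 5 were the high ones, and the genotype difference was 0.20 (SE 0.30). Amigo2, an adhesion protein of neurons and astrocytes and an A1 gene, was the exception in direction, at 485, 489, 510.4 and 454 in the control libraries and 399, 450.2 and 443 in the mutant libraries. Its mutant libraries lay just below the controls, without passing the test (log2 fold change -0.17, SE 0.1, edgeR adjusted p = 0.438).

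The enzymes Aspg and Tgm1 rose by about 2 on the log2 scale each. Aspg (chr12:112106683-112127573, plus strand), an asparaginase, had counts of 41.7, 65.3, 74.8 and 69.1 in the control libraries and 236, 262 and 252 in the mutant libraries, the lowest mutant library being more than 3 times the highest control library (log2 fold change 1.99, SE 0.20, edgeR adjusted p = 0.00128). Tgm1 (chr14:55700009-55713492, minus strand), a transglutaminase that cross-links proteins and is best known from the epidermis, was low in both genotypes, at 7.68, 5.02, 7.68 and 8.13 in the control libraries and 21.1, 25.9 and 41.7 in the mutant libraries. The mutant libraries nevertheless lay above all controls (log2 fold change 2.03, SE 0.36, edgeR adjusted p = 0.0159), but no control library reached 10 counts, so Tgm1 entered the test through the mutant libraries alone and was not tested with any of these left out. Of 14 epidermal and tendon genes 8 were tested, 4 with a positive and 4 with a negative log2 fold change, and the tendon gene Tnmd was called. The epidermal keratin Krt10 and the loricrin gene Lor, next to Tnmd the highest per length, differed by -0.26 and -0.078. Under alternatives Sprr1a was called higher with no filter on low counts (log2 fold change 3.60, adjusted p = 0.0494) and Krt1 in libraries 10 to 13 alone (0.80, 0.0256), while Dsp was called lower by DESeq2 (-0.96, 0.0155), in libraries 10 to 13 alone (-1.25, 0.00337) and without control library 3 (-1.19, 0.007).

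Hspb1, Steap4, Ggta1 and B3gnt5 were tested and not called. Hspb1, a small heat shock protein, read 88.8, 77.3, 127 and 104 in the control libraries and 79.5, 179 and 199 in the mutant libraries. Mutant libraries 12 and 13 were the highest and mutant library 5 the next to lowest (log2 fold change 0.62, SE 0.31, edgeR adjusted p = 0.346). The difference was -0.063 in libraries 2, 3 and 5 and 0.72 in libraries 10 to 13, where the adjusted p was 0.0275, and 54.0% of the 36-base words of Hspb1 also occur in pseudogenes. Steap4, a metalloreductase, read 6.58, 21.1, 8.63 and 9.15 in the control libraries and 12.5, 20.7 and 20.8 in the mutant libraries, where control library 3 was as high as mutant libraries 12 and 13 (log2 fold change 0.65, SE 0.46), and the difference was -0.17 in libraries 2, 3 and 5 and 1.22 in libraries 10 to 13. Ggta1, a galactosyltransferase, was at 158, 169.7, 125 and 130.1 in the control libraries and 180.1, 171 and 189 in the mutant libraries, the mutants just above the controls (log2 fold change 0.31, SE 0.15, edgeR adjusted p = 0.333). B3gnt5, a glycosyltransferase of lactosylceramide, differed by 0.11 (SE 0.18), or by -0.059 and 0.27 in the same runs. Slc10a6, a carrier of steroid sulfates, had between 1 and 5 counts per library, too few for the filter, and is given by its values alone, 1.10, 2.01, 2.88 and 3.05 in the control libraries and 3.83, 5.18 and 2.84 in the mutant libraries.

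By class, 7 of 12 pan-reactive genes were called higher, with a median log2 fold change of 1.04. Of the A2 genes 10 of 11 were tested and 3 were called (Cd109, Emp1 and Tgm1), with a median of 0.55, and of the A1 genes 1 of 9 was called (H2-D1), with a median of 0.33. Tgm1 among the A2 genes, and Cxcl10, Lcn2 and Steap4 among the pan-reactive genes, entered the test through mutant libraries. The medians of these classes include them. The 5 unclassed members gave 3 calls (Stat3, A2m and C4b) and a median of 0.35. The difference between the classes was not tested, since genes are not replicates of the genotype. Classes were given to the members alone, and the further genes below, among them Ptgs2 and Fkbp5, were counted without a class. In 12 genes of the reactive astrocyte literature outside the list that were tested, 3 were called higher and 0 lower by edgeR, and the median was 0.48. At an unadjusted p of 0.05 or less 8 were higher and 2 lower. DESeq2 called 4 higher and 2 lower, the run covariate 5 and 2, and libraries 10 to 13 alone 6 and 2, those lower being Synm and Cryab each time. Those called were Ptgs2, the inducible cyclooxygenase, at 224, 286, 359 and 274 in the control libraries and 1039, 1969.7 and 1106 in the mutant libraries (log2 fold change 2.26, SE 0.24, edgeR adjusted p = 0.00197), S100a6, at 230.3, 280.2, 302 and 299 in the control libraries and 502, 422 and 399 in the mutant libraries (log2 fold change 0.67, SE 0.14, edgeR adjusted p = 0.0296), and Fkbp5, a co-chaperone of steroid receptors, at 1314, 1497, 1405 and 1331 in the control libraries and 1881, 1816 and 1782 in the mutant libraries (log2 fold change 0.40, SE 0.074, edgeR adjusted p = 0.0197). With 1 library left out at a time Ptgs2 stayed called in all 7 fits, whereas Fkbp5 and S100a6 stayed called without control library 3 alone, with adjusted p in the other fits of 0.0503 to 0.0912 for Fkbp5 and from 0.0506 for S100a6. Ptgs2 is also an activity-regulated gene of neurons. The small heat shock gene Cryab, the one with the highest level per length of the 12, was lower in every mutant library than in any control library, at 1479, 1694, 1689.6 and 1639 in the control libraries and 1067, 1402 and 1239 in the mutant libraries, without passing the test (log2 fold change -0.40, SE 0.10, edgeR adjusted p = 0.0721). Its adjusted p was 0.0183 by DESeq2, 0.0156 with the run covariate and 0.0377 in libraries 10 to 13 alone.

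**Figure D4:**
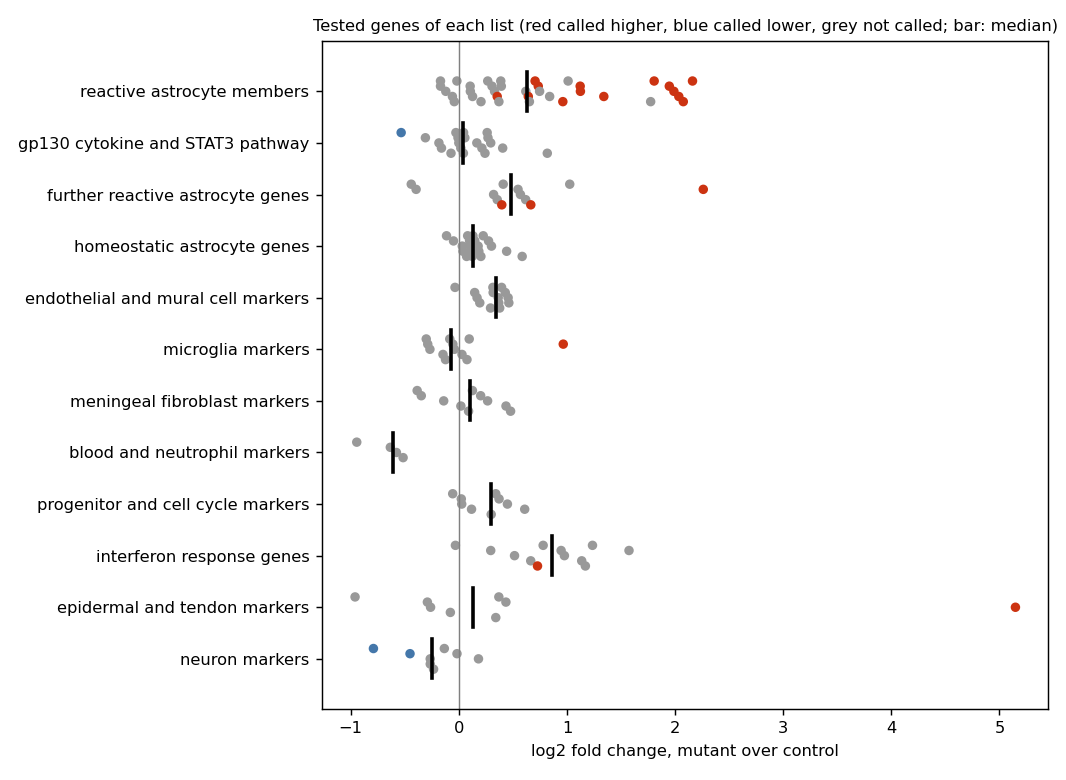
Each point is a tested gene, placed by its log2 fold change, mutant over control, in the list of reactive astrocyte members and in 11 other lists; red points were called higher, blue points lower, grey points were not called, and the bar is the median. The members (median 0.63, 14 red points) stand beside homeostatic astrocyte genes (median 0.13, no red point) and microglia markers (median -0.070, 1 red point). The median of the interferon response genes was higher than that of the members, at 0.86 with 1 red point. That of the further reactive astrocyte genes was 0.48 (3 red points) and that of the endothelial and mural cell markers 0.34 (no red point).

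Genes that astrocytes express in the resting state were mostly a little higher in the mutants without passing the test. Of 20 homeostatic astrocyte genes, all were tested, 0 were called higher or lower by edgeR, and 18 had a positive log2 fold change, with a median of 0.13; at an unadjusted p of 0.05 or less 4 were higher and 0 lower, and DESeq2 called 3 higher (Aqp4, Gja1 and Glul). The same 3 were called with the run covariate (adjusted p = 0.0300, 0.0210 and 0.0202), Slc1a2 and Gja1 in libraries 10 to 13 alone, Aqp4 and Gja1 with 10 counts required in all 7 libraries, and Gja1 with upper quartile normalization. In 6 of the 20 genes every mutant library lay above every control library, a pattern seen in 10.7% of all genes. Their summed level was 2168 to 2430 RPKM in the controls and 2565 to 2774 RPKM in the mutants, without overlap. The summed level of the 37 members was 124 to 137 RPKM in the controls and 293 to 326 RPKM in the mutants. Glul, glutamine synthetase, was at 432 ± 11.4 RPKM in the controls and 523 ± 25.0 RPKM in the mutants (mean ± SD, n = 4 and n = 3), and the glutamate transporter gene Slc1a2 at 421 ± 86.1 and 572 ± 65.5 RPKM. Ndrg2, the next in level, was at 294 ± 29.1 and 301 ± 22.2 RPKM. What part the level of the homeostatic genes has in the difference of the members was not tested.

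Many members are made by other cells too, so markers of those cells are given beside them. Of 14 endothelial and mural cell markers 0 were called and 13 were positive (median 0.34), their sum being 132 to 151 RPKM in controls and 162 to 187 RPKM in mutants; 8 were higher at an unadjusted p of 0.05 or less, and DESeq2 called 5 of them, the run covariate 8 and libraries 10 to 13 alone 8. Cldn5, the claudin of brain endothelium, was at 35.5 ± 6.01 RPKM in controls and 46.2 ± 3.72 RPKM in mutants. Of 12 microglia markers 1 was called higher, the lysosomal gene Cd68 (log2 fold change 0.97, SE 0.17, edgeR adjusted p = 0.0152, or 0.0674 and 0.0827 without mutant libraries 12 and 13), 0 were called lower by edgeR or DESeq2 (3 at an unadjusted p of 0.05 or less, namely P2ry12, Tmem119 and Itgam, at -0.30, -0.29 and -0.27), P2ry12 was called lower with the run covariate (adjusted p = 0.0317), and the sum was 182 to 198 RPKM in controls and 168 to 185 RPKM in mutants. The defining microglia genes C1qb and Csf1r differed by -0.041 and -0.055 on the log2 scale. Of 10 meningeal fibroblast markers 0 were called by edgeR and 2 by DESeq2 (3 higher and 0 lower at an unadjusted p of 0.05 or less), with sums of 53.2 to 76.3 RPKM in controls and 57.0 to 67.8 RPKM in mutants. With the run covariate 1 of these markers was called higher, Foxc1 (log2 fold change 0.46, adjusted p = 0.0289). Of 9 blood and neutrophil markers, 4 red cell genes were tested and 0 called by edgeR or DESeq2, none being higher or lower at an unadjusted p of 0.05 or less. Hba-a1, Hbb-bs and Alas2 were called lower with the run covariate (log2 fold changes -1.01, -0.71 and -0.68) and in libraries 10 to 13 alone (-0.77, -0.76 and -0.58), with haemoglobin making up most of a sum of 199.9 to 507 RPKM in controls and 129.8 to 323 RPKM in mutants. No gene of these lists was at 0 in every library, and what part these cells have in the members' differences was not tested.

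Levels per length ordered the members differently from their changes. In the controls Gfap was the highest, at 43.5 ± 3.26 RPKM, followed by Serpina3n at 19.6 ± 1.67, H2-D1 at 10.2 ± 1.39, Vim at 8.91 ± 0.813 and S100a10 at 8.87 ± 3.19 RPKM. The control levels of the last 3 of these did not differ from each other beyond their spread. In the mutants Gfap stood at 168 ± 17.0, Serpina3n at 38.2 ± 4.59, Vim at 19.4 ± 2.51, H2-D1 at 16.0 ± 0.898 and S100a10 at 10.2 ± 3.02 RPKM. C4b rose from 2.10 ± 0.427 to 7.34 ± 0.836 RPKM and A2m from 0.586 ± 0.0650 to 2.47 ± 0.161 RPKM. The lowest member was Slc10a6, at 0.0298 ± 0.0119 RPKM in the controls.

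**Figure D5:**
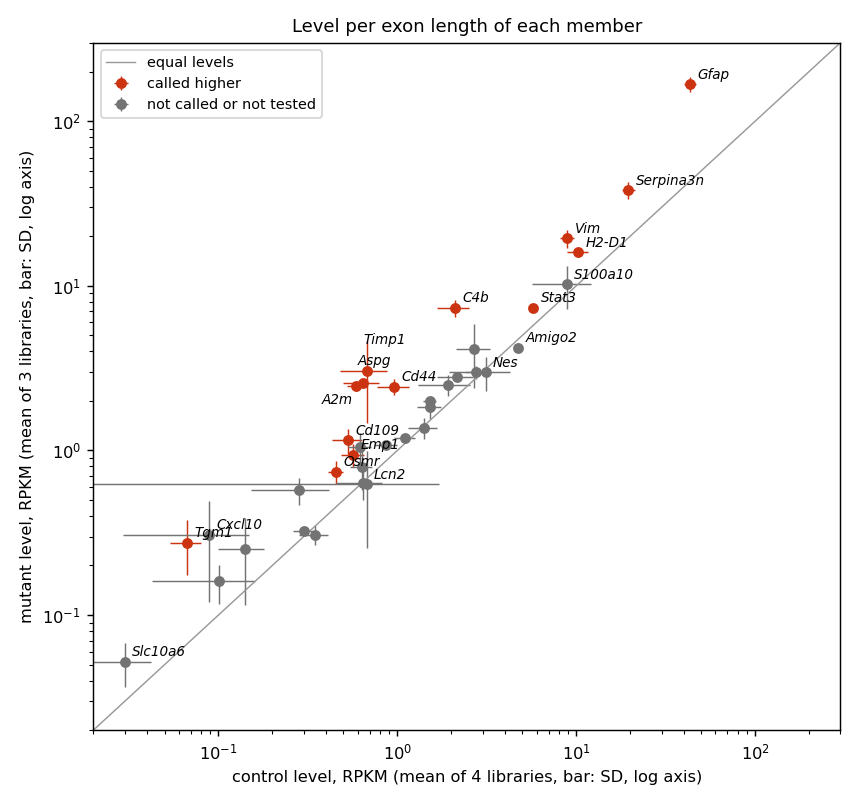
Mean level of each member in the 4 control libraries (horizontal, RPKM, log axis) against the 3 mutant libraries (vertical, RPKM, log axis), with bars of 1 SD cut at the axis limit and the line of equal levels. Gfap lies furthest to the upper right, at 43.5 and 168 RPKM, and the called members, in red, lie above the line at levels from 0.067 RPKM (Tgm1) upward in the controls.

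The members shared no position in the genome. They lay on 16 chromosomes (GRCm38), with at most 5 on any, and the closest group was C4b, H2-D1 and Psmb8, which stand within 1.07 Mb of each other in the histocompatibility region of chromosome 17. On chromosome 2, which carries Lhx6 (chr2:36081953-36105408), Ggta1 lay 0.619 Mb and Lcn2 3.69 Mb from that gene, and neither was called. The called members of that chromosome, Vim and Cd44, lay 22.5 and 66.7 Mb away.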

How the data were processed

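Illumina TruSeq libraries of forebrain RNA (RIN 9 to 10) from 7 samples of 2 animals each were sequenced as single-end reads. The authors trimmed reads with cutadapt 1.9.1, aligned them with Bowtie2 2.2.9 to mouse transcripts (GRCm38, Ensembl release 84) and deposited expected counts per gene from RSEM 1.2.31 without normalization. Of a second deposited table, made by the authors with DESeq2, only gene names were used; it also holds fold changes and p-values, which were not read. Its signal column, the mean normalized count per gene that the authors computed with DESeq2 over all libraries before they deposited it, was not used. The exon annotation deposited by the authors gave positions and names; its other columns were used as text.

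Columns named a genotype and a library number and not the pool, so sex, RIN and replicate numbers could not enter a fit; 0 columns of per-sample values were left unused. Between libraries of a genotype the chi-square per degree of freedom was 9.93 to 70.4, so each counted as 1 replicate. Expected counts were rounded. A gene entered the test with 10 counts or more in 3 libraries or more, which 19684 genes reached. The 4 control and 3 mutant libraries were scaled by TMM and compared by the quasi-likelihood F statistic of edgeR 4.0.16 (limma 3.58.1, R 4.3.3), Benjamini-Hochberg adjustment covered all genes tested, and the threshold was 0.05. Each standard error was found by dividing the size of the log2 fold change by the root of F. RPKM values are counts scaled to the effective library size and to the length of all exons. Totals of 32556304 to 38069151 put 3 counts, the limit that a count of 0 allows, at 0.0788 to 0.0921 CPM; this covers counting error only. RSEM divides reads among similar genes, and the strand setting is not given in the sources used here, so 36-base words shared between genes are given where they are many. The fit was tested on simulated data. Alternatives were DESeq2 1.42.0, limma-voom, RLE and upper quartile normalization, other filters, unrounded counts, a covariate for the run of library numbers, each run alone and each library left out.

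All members could be named, and of the 11 other lists (gp130 cytokine and STAT3 pathway, further reactive astrocyte, homeostatic astrocyte, endothelial and mural, microglia, meningeal fibroblast, blood and neutrophil, progenitor and cell cycle, interferon response, epidermal and tendon, neuron) the called genes and up to 3 with the highest level per length. Bcl3, Pias3, the neutrophil genes, the microglia genes lower at an unadjusted p and the genes of other lists called under an alternative alone were named after their values were seen. The values of 2 genes of these lists, 1 of them called, are not reported here. The members and lists were chosen with earlier results of these data known.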

Additional observations from a re-analysis of the deposited data

Results flagged for a closer look

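In 6 of the 36 members tested, a control library stood apart from the other 3, by a gap of more than 0.829 of the range of the 4 controls; chance alone marks about 1 in 20 such groups. Control library 3 was the highest for Lcn2, at 208 normalized counts against 7.68, 7.68 and 28.5, and for Srgn, at 134 against 112 to 116, and it was the lowest for Tgm1, at 5.02 against 7.68, 7.68 and 8.13. Control library 11 was the highest for Cxcl10, at 14.2 against 4.02 to 5.48, and the lowest for Emp1, at 94.5 against 127 to 131. Control library 2 was the lowest for Tm4sf1, at 214 against 339.6 to 366. Without the library concerned the log2 fold change was 1.98 in place of -0.12 for Lcn2, 0.45 in place of 0.39 for Srgn, 0.22 in place of 0.37 for Tm4sf1 and 0.64 in place of 0.73 for Emp1. The adjusted p of Srgn was then 0.0805 and that of Emp1 0.0931, so that Emp1 was called with control library 11 and not without it.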

How the results depend on the processing

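Under the 16 alternatives with a test, no member was called lower (0 in each) and no called member changed sign. The number called higher was 14 with all libraries, 13 to 16 under the 9 alternatives that changed the tool, normalization, filter, rounding, covariate or run, and 8 to 13 with 1 library left out. The lowest numbers were 8 without mutant library 5, 9 without mutant library 12 and 8 without mutant library 13, fits with fewer samples. Gfap, Vim, A2m, Serpina3n, C4b, Cd44 and Aspg were past the threshold in all 16. Tgm1 was tested in 12 of them, not where a mutant library was left out or all 7 libraries had to reach the minimum, because its controls were under the count minimum. Sphk1, Ptx3 and Hspb1, not called, passed in at least 1. Of 565 pairs of a member and an alternative with a test, 529 kept their verdict, 26 lost a call, 5 gained a call, 0 reversed a call and 5 changed sign without a call and by more than the standard error. In the other lists, endothelial and mural markers called higher went from 0 to 8 with the run covariate, interferon response genes from 1 to 5 in libraries 10 to 13, and red cell genes called lower from 0 to 3 in both; the cause was not tested. No paired analysis was possible because the columns carry a library number and no replicate number. Depth limits Slc10a6, Cxcl10, Tgm1 and Steap4, which had few counts, and the number of pools limits all members.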

Other observations

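The lists not described beside the members gave these values. Of 8 neuron markers 0 were called higher and 2 lower, the neurofilament genes Nefl, at 18287, 19631, 18329.9 and 18099.5 in the control libraries and 13141, 14232 and 13404 in the mutant libraries (log2 fold change -0.45, SE 0.076, edgeR adjusted p = 0.0132), and Nefm, at 12717, 14786, 9427 and 9645 in the control libraries and 7815, 6588 and 5801 in the mutant libraries (log2 fold change -0.79, SE 0.18, edgeR adjusted p = 0.0443), each with every mutant library below every control library; the median of the list was -0.25. The call of Nefl was lost without mutant libraries 5, 12 or 13 (adjusted p = 0.0708, 0.0501 and 0.0951), and that of Nefm without control libraries 2 or 3 (0.0940 and 0.0550) and without mutant libraries 5, 12 or 13 (0.0695, 0.152 and 0.187). Nefm was also not called with upper quartile normalization. Syt1 was called lower with the run covariate (adjusted p = 0.0174) and in libraries 10 to 13 alone (0.0472). Of 9 progenitor and cell cycle markers 0 were called, with a median of 0.30 (edgeR and DESeq2; 1 higher and 0 lower at an unadjusted p of 0.05 or less). Of 14 epidermal and tendon genes 8 were tested, and 1 was called, Tnmd, which encodes tenomodulin, a membrane protein of tendon. Tnmd was at 7.68, 26.1, 19.2 and 21.3 in the control libraries and 626, 502 and 873 in the mutant libraries normalized counts (log2 fold change 5.15, SE 0.33, edgeR adjusted p = 0.000226), so that the lowest mutant library held 19 times the count of the highest control library, while Scx, another tendon gene and chosen after its values were seen, was at 26.3, 21.1, 46.1 and 31.5 in the control libraries and 36.4, 36.2 and 46.4 in the mutant libraries.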
